A study of Mus musculus with 12 samples.

Results

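The RNA of exosomes from cultures of wild-type dendritic cells was compared with the RNA of the cells of those cultures. The members of this comparison were taken from the sample labels: the 3 cell libraries and the 3 exosome libraries labelled wild type, 6 of the 12 libraries in the series. Both libraries of a pair came from 1 C57Bl/6 mouse. Mice 33 and 42 were female and mouse 46 was male, and no allele was altered and no agent was given in either group. Femur marrow had differentiated over 7 days in DMEM to which 10% calf serum (fetal) and 10% supernatant of X-63, a cell line supplying the growth factor GM-CSF, had been added, so all cells shared that serum and that supplement. Exosomes had been concentrated from the culture supernatant by ultrafiltration and differential ultracentrifugation. Cell RNA had been taken up in Tri-Reagent, and vesicle RNA in Trizol LS followed by a Qiagen column, so compartment and extraction method cannot be told apart here. A TruSeq kit turned 200 ng of total RNA per sample into libraries, which a NextSeq read from both ends over 80 bases. The other 6 libraries are cells and exosomes of 3 mice whose label gives a double knock-out of the genes Sidt1 and Sidt2, and they enter only where the wild-type difference is set beside theirs. Each replicate is a separate mouse.

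Exosomes form when the membrane of an endosome buds inward and the resulting multivesicular body fuses with the cell surface. Vesicles pelleted from a culture supernatant also include buds of the plasma membrane and other particles of like size. Dendritic cells present antigen to T cells, and their vesicles have long been known to carry antigen-presenting and costimulatory proteins. The comparison asks which messages are over- or under-represented in the pelleted vesicles relative to the cells. The medium also held serum and X-63 supernatant, and their part in the RNA of the pellet was not tested.

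Depth and composition differed between the libraries before any gene was tested. The cell libraries held 32273898, 19095284 and 32079067 counts for mice 33, 42 and 46, the order kept for every set of 3 values here, and the exosome libraries held 8200062, 22236435 and 11393570. A count of 0 allows up to 3 counts, which is 0.0819 to 0.436 CPM depending on the library. CPM here is a count scaled to the size of its library after adjustment by a normalisation factor (TMM). These factors were 1.13 to 1.15 in cells and 0.84 to 0.93 in exosomes, so CPM is not a plain share of counts. The exosome libraries were also more uneven than the cell libraries. RNA encoded by the mitochondrial genome took 4.96%, 5.73% and 5.59% of counts in cells but 2.26%, 4.65% and 11% in exosomes, so the exosomes of mouse 33 lay below all cell libraries and those of mouse 46 above all. Ferritin, the iron-storage protein, took 1.71%, 1.52% and 1.47% in cells and 8.93%, 7.02% and 5.40% in exosomes. Messages of cytosolic ribosomal proteins took 1.22%, 1.61% and 1.63% in cells and 4.16%, 2.36% and 1.65% in exosomes, with the exosomes of mouse 46 near the cells of the same mouse. The 95% binomial (Wilson) intervals of these shares were narrow, for example 2.25% to 2.27% for the mitochondrial RNA in the exosomes of mouse 33, and they cover counting error only. The exosome library of mouse 33 therefore stood at 1 end of each of these measures and that of mouse 46 at the other. Several results that rest on either are given below with and without it.

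**Figure D1:**
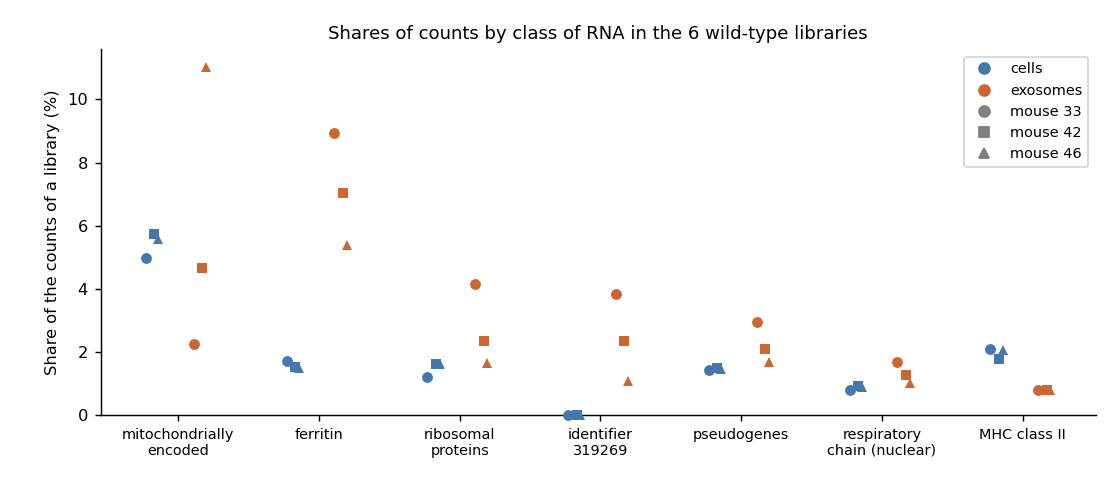
Share of the counts of each library (%, vertical axis) taken by 7 classes of RNA, with cells in blue and exosomes in orange and 1 symbol per mouse. Ferritin took 5.40% to 8.93% of exosome counts against 1.47% to 1.71% in cells, and mitochondrially encoded RNA ranged from 2.26% to 11% among exosomes.

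Marker genes of other cell types were read before the comparison. The summed level of 10 dendritic cell markers was 8558 to 11121 CPM in cells and 3150.0 to 3639 CPM in exosomes. Cd74 alone had a mean of 5901 CPM in cells and Flt3 one of 12.5 CPM, so the sum does not establish the cell type. By the test given below, which called 19.6% of all genes lower, 9 of the 10 markers were lower in exosomes. Among 8 macrophage markers, summed levels were 2004 to 2347 CPM in cells and 1329 to 1421 CPM in exosomes, and 6 of 8 were lower and 1 higher. A wider list of 22 macrophage genes, which adds the abundant Lyz2, summed to 42089.6 to 45494 CPM in cells and 52035 to 56647 CPM in exosomes, and 8 of its members were lower and 3 higher. The 8 neutrophil markers summed to 1023, 1858 and 1289 CPM in cells and to 3627, 1954 and 550.2 CPM in exosomes, so the exosome libraries spread more widely than the cells, and none of the 8 passed the test. Markers of platelets summed to 290.3 to 345 CPM in cells and 496 to 743 CPM in exosomes, where Pf4, a platelet chemokine also made by myeloid cells, stood at 265, 260.2 and 217 CPM in cells and 631, 475 and 409 CPM in exosomes. Markers of B and plasma cells were at 94.1 to 181 CPM in cells and 17.7 to 65.9 CPM in exosomes, those of mast cells at no more than 39.9 CPM, those of T and NK cells at no more than 3.93 CPM, those of red cell precursors at no more than 2.04 CPM and those of stroma at no more than 21.2 CPM. The part of these cells in the results below was not tested. In such bulk RNA, fewer cells of a type and less RNA per cell cannot be told apart. Csf2, which encodes GM-CSF, had 0 counts in all 6 wild-type libraries.

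Of 12829 genes tested with edgeR's quasi-likelihood F test, 4909 (38.3%) differed at an adjusted p below 0.05, and these are the genes called here. Of these, 2400 (18.7% of genes tested) were higher in exosomes and 2509 (19.6%) were lower. Large decreases outnumbered large increases: 223 genes were at least 8-fold lower and 52 at least 8-fold higher. The median log2 fold change of exosomes over cells across all genes was -0.02. The levels of the 2 groups did not overlap for 7108 genes (55.4%), of which 3258 (25.4%) lay above in exosomes and 3850 (30.0%) below. Most genes named below were picked by small p or by non-overlap itself, so the separation of their groups adds no support. The scaling and the choice of libraries bear on every count that follows. With libraries scaled by their total counts, the median moved to -0.39 and the calls to 1116 higher and 4132 lower, so directions are given relative to the median of all genes. The calls numbered 2284 to 5522 with any 1 library left out, and 99, of which 3 were higher, without both libraries of mouse 42. They numbered 5708 without both libraries of mouse 33 and 3433 without both of mouse 46. With the mouse as a block they numbered 3837, of which 3765 were among the 4909. Of 159 called genes named here, 142 kept their call with any 1 library left out and 24 without both libraries of mouse 42. The other 17 are marked where they are described, and none changed direction in any of the 18 alternatives.

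**Figure D2:**
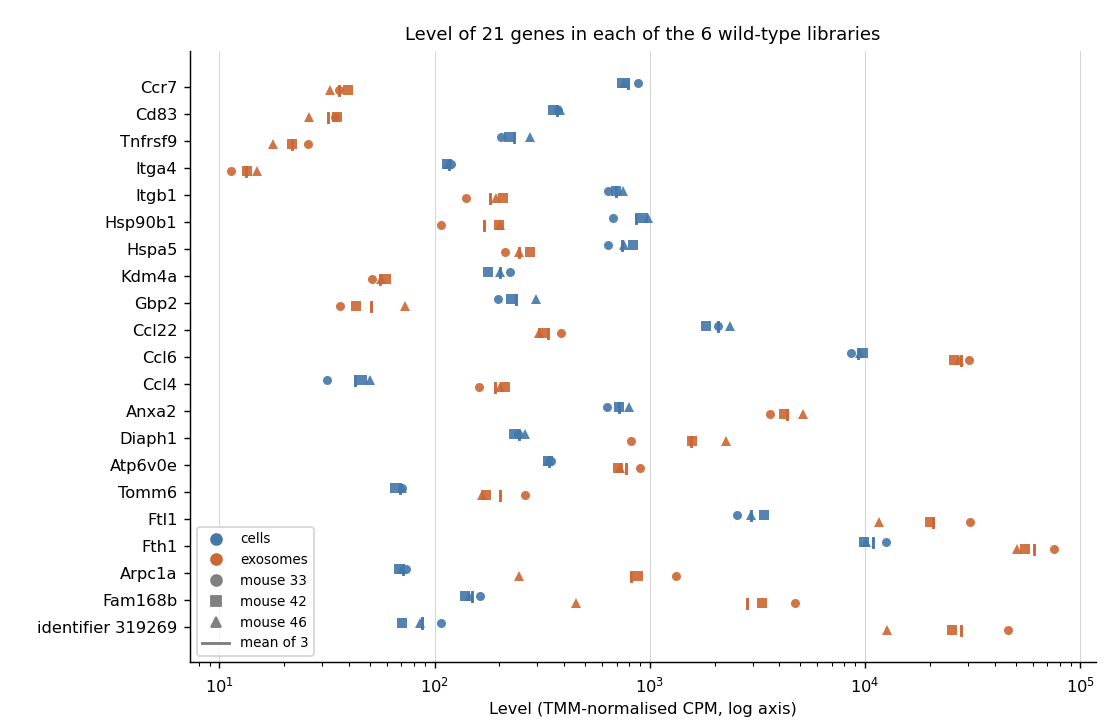
Level of 21 genes (TMM-normalised CPM, horizontal log axis) in each of the 6 wild-type libraries, with cells in blue, exosomes in orange, 1 symbol per mouse and a vertical tick at each mean of 3. Cells and exosomes did not overlap for any of the genes drawn, and Fam168b, Arpc1a and the identifier 319269 spread most among the exosomes.

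The most abundant messages were partly shared. In cells the 5 highest by CPM, which is not scaled to length, were Lyz2, which encodes lysozyme, at 26315 ± 2441 CPM (SD, n = 3), the mitochondrial COX1, Psap, Mmp12 and Fth1. Among exosomes the 5 highest were Fth1 at 60713 ± 13261 CPM (SD, n = 3), COX1 at 42534 ± 30586 CPM, Lyz2, an identifier without a symbol (319269) and Ccl6. Scaled to length, exosomes held 70108 CPM per kilobase of Fth1, 27530.3 of COX1 and 19385 of Ccl6, and cells held 12502, 15629 and 6467. Fth1 encodes the ferritin heavy chain (GRCm38 chromosome 19, 9980600 to 9985111), and its 12526, 9853 and 10102 CPM in cells stood against 75805, 55412 and 50923 CPM in exosomes (log2 fold change 2.49 ± 0.21, adjusted p = 0.000515, edgeR). All 3 exosome libraries lay far above all cell libraries. Ftl1, the ferritin light chain, was at 2551, 3386 and 2954 CPM in cells and 30711, 20019 and 11558 CPM in exosomes (log2 fold change 2.81 ± 0.35, adjusted p = 0.00176). Here too the groups did not overlap, with the exosomes of mouse 33 highest and those of mouse 46 lowest. Lyz2 differed little, at 23721, 28566 and 26657 CPM in cells and 32852, 36706 and 36461 CPM in exosomes (log2 fold change 0.43 ± 0.14, adjusted p = 0.0494), and it no longer passed with the mouse as a block (adjusted p = 0.0589) or under total-count scaling (adjusted p = 0.814), and without any 1 of 5 libraries, the exosomes of mouse 33 being the exception (adjusted p = 0.107 to 0.21).

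The identifier 319269 carried the largest increase among the called genes with a mean of at least 50 CPM, and the tables used here pair it with no symbol. It stood at 107, 70.5 and 85.8 CPM in cells and 45899, 25225 and 12626 CPM in exosomes (log2 fold change 8.31 ± 0.57, adjusted p = 0.000325, edgeR). Its share of counts went from 0.0121%, 0.00812% and 0.00969% in cells to 3.85%, 2.35% and 1.09% in exosomes. Another unnamed identifier, 100504344, had 1.91, 1.23 and 1.99 CPM in cells and 238, 165 and 32.5 CPM in exosomes (log2 fold change 6.38 ± 0.75). Both were above the cells in every exosome library, and both were highest in mouse 33 and lowest in mouse 46. Of the other identifiers without a symbol, 1 took 5.34% of counts in the exosomes of mouse 46 but 0.274% and 0.111% in those of mice 33 and 42, and 0.275% to 0.891% in cells. That share belonged to a single library.

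The 15 largest increases among named genes shared a pattern across the mice. They were taken from 1212 genes that were called higher, reached a mean of 50 CPM in exosomes, did not overlap between groups and were not predicted genes, and their log2 fold changes ran from 3.49 to 4.39. Rap1gap2, a GTPase-activating protein for Rap1, was at 7.34, 6.68 and 6.3 CPM in cells and 268, 141 and 20 CPM in exosomes (log2 fold change 4.39 ± 0.81, adjusted p = 0.00597, edgeR). Fam168b, which encodes a membrane protein first studied in neurons, was at 162, 138 and 145 CPM and 4704, 3319.9 and 454 CPM (log2 fold change 4.25 ± 0.75, adjusted p = 0.00516). Gnpat, an enzyme of ether lipid synthesis in peroxisomes, was at 43.5, 43.4 and 42.3 CPM and 1079, 803 and 129 CPM (log2 fold change 3.96 ± 0.68, adjusted p = 0.00479). In each case the cells of the 3 mice were almost level while the exosomes of mouse 46 were several-fold below those of mice 33 and 42. Wsb2, which encodes a substrate adaptor of a ubiquitin ligase, was at 139.7, 112 and 119 CPM in cells and 2897, 2229 and 531 CPM in exosomes (log2 fold change 3.93 ± 0.57, adjusted p = 0.00275). Metrn, a secreted factor first studied in glia, was at 11.4, 9.64 and 7.7 CPM and 315, 157 and 43.7 CPM (log2 fold change 4.16 ± 0.65, adjusted p = 0.00354). Tdg, a DNA glycosylase that removes mismatched thymine, was at 11.5, 9.14 and 10.2 CPM and 272, 163 and 27 CPM (log2 fold change 3.9 ± 0.72, adjusted p = 0.00604). The order among exosomes was the same for these. Arpc1a, a subunit of the Arp2/3 complex that branches actin, was at 73.8, 68.4 and 70.8 CPM and 1316, 881 and 246 CPM (log2 fold change 3.52 ± 0.54, adjusted p = 0.00333). The others were Rdh10, Asb1, Exog, Tmem248, Otud3, Stradb, Zbed4 and Unc119b. All 15 were highest in the exosomes of mouse 33 and lowest in those of mouse 46, the same order as for ferritin and ribosomal protein messages and for the neutrophil markers above, whose part was not tested. None of the 15 passed without both libraries of mouse 33 (adjusted p = 0.0538 to 0.166), and with any 1 library left out all 15 passed but Zbed4, which did not without the cells of mouse 33 (adjusted p = 0.0513).

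The 15 largest decreases were steadier across the mice. They came from 960 genes chosen by the same rule, and their log2 fold changes ran from -3.34 to -4.87. Adgrg6, an adhesion G protein-coupled receptor, was at 72.4, 62.7 and 76.1 CPM in cells and 0.582, 2.95 and 3.25 CPM in exosomes (log2 fold change -4.87 ± 0.44, adjusted p = 0.000598, edgeR). Sema7a, a membrane-anchored semaphorin that binds integrins, was at 145, 87 and 90.1 CPM and 3.64, 5.6 and 3.35 CPM (log2 fold change -4.64 ± 0.32, adjusted p = 0.000325). Adam23, a surface protein of the disintegrin family, was at 107, 86.5 and 117 CPM and 5.09, 3.38 and 4.57 CPM (log2 fold change -4.6 ± 0.24, adjusted p = 0.00025). The groups lay far apart for each of the 3. Dpp4, a surface peptidase that trims chemokines, was at 64.2, 70.7 and 85.5 CPM in cells and 3.64, 2.27 and 7.21 CPM in exosomes (log2 fold change -4.1 ± 0.41, adjusted p = 0.000798). Stat4, a transcription factor of interleukin-12 signalling, was at 82.6, 79.9 and 95.4 CPM and 4.51, 11.4 and 4.98 CPM (log2 fold change -3.58 ± 0.36, adjusted p = 0.000829). Tnfrsf9, the costimulatory receptor 4-1BB, was at 203, 222 and 276 CPM and 25.9, 21.8 and 17.7 CPM (log2 fold change -3.42 ± 0.21, adjusted p = 0.000276). None of these groups overlapped, which the rule of choice required. Ccr7, the receptor that brings mature dendritic cells to lymph nodes, and Cd83, a maturation marker, were also among the 15, with log2 fold changes of -4.46 and -3.53, as were Adcy6, Mmp25, Ktn1, Ceacam15, P2ry10 and Tmem131. The nuclear RNA Malat1 completed the set at 189.7, 384 and 192 CPM in cells and 7.56, 2.99 and 46.1 CPM in exosomes (log2 fold change -3.77 ± 0.92, adjusted p = 0.0159), with a wide spread among the exosomes, and its call was lost without the exosomes of mouse 33 (adjusted p = 0.146) or the cells of mouse 42 (adjusted p = 0.0539).

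**Figure D3:**
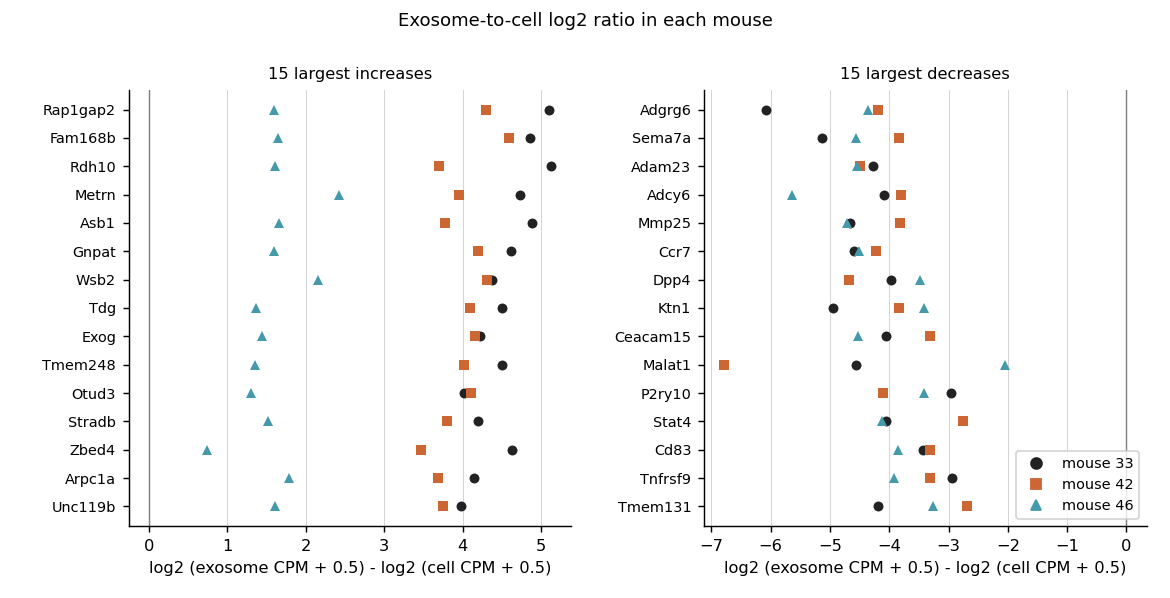
Log2 ratio of exosome to cell CPM (0.5 added to each, horizontal axis) in mouse 33, mouse 42 and mouse 46 for the 15 largest increases (left) and the 15 largest decreases (right). In the left panel mouse 46 lies lowest for every gene, and in the right panel no mouse is at 1 end throughout.

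Genes of dendritic cell maturation and of the cell surface were mostly lower in exosomes. Of 20 maturation and migration genes, 18 were lower and 1, Fabp5, was higher, where 19.6% and 18.7% of all genes were, with a median log2 fold change of -2.46. Of 14 leukocyte integrins, which anchor cells to vessel walls and matrix, 10 were lower and none was higher (median -1.35, against -0.02 over all genes). Itga4, the alpha chain of the integrin VLA-4 (GRCm38 chromosome 2, 79255426 to 79333114), was at 119, 114 and 115 CPM in cells and 11.3, 13.4 and 14.9 CPM in exosomes (log2 fold change -3.13 ± 0.17, adjusted p = 0.000269, edgeR). Its partner Itgb1 was at 642, 695 and 751 CPM and 139.8, 208 and 193 CPM (log2 fold change -1.95 ± 0.19, adjusted p = 0.000744). Itgav was at 40.5, 35.3 and 37.1 CPM and 12.1, 11.4 and 13.4 CPM (log2 fold change -1.61 ± 0.17, adjusted p = 0.000919). For all 3 chains the exosomes lay below the cells in every mouse. With any 1 library left out, 8 to 10 of the 14 were lower. Of 15 costimulatory and checkpoint ligands, 9 were lower and 1 was higher (median -1.28). Cd86, the ligand of CD28 and CTLA-4, was at 142, 192 and 192 CPM in cells and 37.8, 30.1 and 21.3 CPM in exosomes (log2 fold change -2.56 ± 0.24, adjusted p = 0.000722). Cd40, which receives help from T cells, was at 13.3, 14.1 and 14.3 CPM and 3.2, 2.46 and 1.42 CPM (log2 fold change -2.57 ± 0.31, adjusted p = 0.00163). Tnfsf4, the OX40 ligand, was at 33.5, 36.6 and 35.4 CPM and 3.2, 6.42 and 8.84 CPM (log2 fold change -2.49 ± 0.32, adjusted p = 0.00203). The exception was Lgals9, the gene of the secreted lectin galectin-9, at 104, 119 and 113 CPM in cells and 197, 180.4 and 189.5 CPM in exosomes (log2 fold change 0.76 ± 0.13, adjusted p = 0.00511), which did not pass under total-count scaling (adjusted p = 0.0541).

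Receptors for growth factors and cytokines were lower more often than higher, and the single higher member encodes a secreted antagonist. Of 23 such genes, 10 were lower and 1 was higher (median -0.56). Flt3, the receptor that drives dendritic cell development, was at 13.8, 10.3 and 13.3 CPM in cells and 0.436, 1.11 and 0.711 CPM in exosomes (log2 fold change -3.92 ± 0.36, adjusted p = 0.000652, edgeR). Kit, the stem cell factor receptor, was at 17.2, 13.5 and 16.4 CPM and 1.16, 0.386 and 1.02 CPM (log2 fold change -4.34 ± 0.41, adjusted p = 0.000679). Csf1r, the receptor of the macrophage growth factor, was at 803, 629.7 and 661 CPM and 145, 196 and 203 CPM (log2 fold change -1.94 ± 0.19, adjusted p = 0.000775). Flt3 and Kit reached no more than 1.16 CPM in any exosome library, close to the limit of a count of 0. Il1rn, which blocks the interleukin-1 receptor, was at 534, 504 and 582 CPM in cells and 1387, 1345 and 1423 CPM in exosomes (log2 fold change 1.36 ± 0.14, adjusted p = 0.000854), higher in every mouse. Among 18 C-type lectin receptors, 7 were lower and 3 were higher. Ly75, the antigen-uptake receptor DEC-205, was at 25, 24.6 and 23.8 CPM in cells and 3.49, 4.54 and 5.38 CPM in exosomes (log2 fold change -2.44 ± 0.22, adjusted p = 0.000594). Clec10a, a galactose-binding lectin, was at 86.2, 101 and 109 CPM and 35.2, 28.4 and 26.4 CPM (log2 fold change -1.72 ± 0.18, adjusted p = 0.000919). Exosomes were below cells for both in every mouse.

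Myeloid chemokines split into a higher and a lower group. Of 18, 7 were higher and 4 were lower in exosomes (median 0.56), and the same numbers were called under total-count scaling. Ccl6, an abundant chemokine of resting macrophages and dendritic cells (GRCm38 chromosome 11, 83587886 to 83593087), was at 8564, 9795 and 9501 CPM in cells and 30430.2, 25842 and 27238 CPM in exosomes (log2 fold change 1.58 ± 0.15, adjusted p = 0.000652, edgeR). Ccl4, a chemokine that draws monocytes and T cells, was at 31.7, 46.1 and 50 CPM and 161, 211 and 202 CPM (log2 fold change 2.17 ± 0.21, adjusted p = 0.000789). Ccl3, a closely related chemokine, was at 78.5, 113 and 103 CPM and 273, 303 and 297 CPM (log2 fold change 1.57 ± 0.17, adjusted p = 0.0011). Each was higher in all 3 exosome libraries than in any cell library. On the lower side, Cx3cl1, which is made as a membrane-bound protein, was at 62.5, 40.8 and 46.1 CPM in cells and 4.36, 5.41 and 5.79 CPM in exosomes (log2 fold change -3.25 ± 0.24, adjusted p = 0.000346). Cxcl16, which is also made with a membrane stalk, was at 373, 279 and 308 CPM and 143, 117 and 113 CPM (log2 fold change -1.37 ± 0.17, adjusted p = 0.00187). Ccl22, which draws regulatory T cells and is released as a soluble protein, was at 2063, 1831 and 2349 CPM and 386, 318 and 306 CPM (log2 fold change -2.63 ± 0.18, adjusted p = 0.000325). The lower members had a median length of 2130 bases against 806 for the higher ones. Summed neutrophil markers ran from 550.2 to 3627 CPM over the exosome libraries, and their part in these chemokine values was not tested.

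Interferon-stimulated genes and immediate early genes also moved both ways. Of 30 interferon-stimulated genes, 11 were lower and 5 were higher (median -0.38), and with the mouse as a block 7 were lower. Gbp2, a guanylate-binding protein that attacks vacuoles of microbes (GRCm38 chromosome 3, 142620663 to 142638008), was at 197, 227 and 295 CPM in cells and 36.4, 43.2 and 72.9 CPM in exosomes (log2 fold change -2.24 ± 0.29, adjusted p = 0.00205, edgeR). Gbp3, its neighbour in the family, was at 69.1, 80.8 and 97.6 CPM and 11.9, 19.4 and 28.4 CPM (log2 fold change -2.04 ± 0.31, adjusted p = 0.00313). Mx1, a dynamin-like antiviral gene that the annotation lists as a pseudogene in this mouse genome, was at 67.3, 76.5 and 82.1 CPM and 13.5, 25.1 and 21.1 CPM (log2 fold change -1.91 ± 0.24, adjusted p = 0.00188). The higher members named changed by less. Irf7, the regulator of interferon-alpha genes, was at 13.2, 11.9 and 10.1 CPM in cells and 26.9, 32.8 and 39.2 CPM in exosomes (log2 fold change 1.49 ± 0.21, adjusted p = 0.00249). Oas1a, which makes the activator of RNase L, was at 39.8, 44.3 and 35.6 CPM and 76.2, 75.1 and 82.7 CPM (log2 fold change 0.97 ± 0.15, adjusted p = 0.00362). Ifi27 was at 45.7, 59.5 and 49.3 CPM and 109, 91.9 and 81.1 CPM (log2 fold change 0.87 ± 0.18, adjusted p = 0.00857) and did not pass under total-count scaling (adjusted p = 0.0605). Of 25 immediate early genes, which include transcription factors, phosphatases and an RNA-binding protein and whose messages are short-lived, 9 were lower and 2 were higher (median -0.48). Egr1 was at 234, 216 and 212 CPM in cells and 27.9, 30.7 and 41.7 CPM in exosomes (log2 fold change -2.72 ± 0.19, adjusted p = 0.000333), and Atf3, which is also induced by stress, was at 189, 152 and 149.8 CPM and 275, 421 and 447 CPM (log2 fold change 1.22 ± 0.21, adjusted p = 0.00514). Fosb was at 15.9, 12.5 and 15.1 CPM and 0.291, 0.918 and 0.813 CPM (log2 fold change -4.3 ± 0.37, adjusted p = 0.00054). Egr1 and Fosb were below the cells and Atf3 above them in every mouse.

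The folding machinery of the endoplasmic reticulum was mostly lower, with a few small members higher. Of 47 genes, 24 were lower and 5 were higher in exosomes (median -0.50). With any 1 library left out 16 to 24 were lower and 1 to 6 higher, and with the mouse as a block 2 were higher. Hspa5, the chaperone BiP, was at 641, 836 and 759 CPM in cells and 211, 278 and 246 CPM in exosomes (log2 fold change -1.6 ± 0.17, adjusted p = 0.00108, edgeR). Canx, the membrane chaperone calnexin, was at 525, 609.9 and 644 CPM and 187, 213 and 223 CPM (log2 fold change -1.51 ± 0.15, adjusted p = 0.000849). Hyou1, a large partner of BiP, was at 125, 109.6 and 112 CPM and 39.1, 38.9 and 40.3 CPM (log2 fold change -1.55 ± 0.14, adjusted p = 0.000602). All exosome libraries lay well below all cell libraries in each case, with little spread among the 3 mice. Hsp90b1, the chaperone GRP94 (GRCm38 chromosome 10, 86690841 to 86705444), was named after its values had been seen, and was at 677, 932 and 984 CPM in cells and 106, 199 and 202 CPM in exosomes (log2 fold change -2.35 ± 0.28, adjusted p = 0.0016). On the higher side, Sdf2l1, a small partner of BiP, was at 79.3, 86.1 and 77.2 CPM in cells and 157, 151 and 158 CPM in exosomes (log2 fold change 0.94 ± 0.13, adjusted p = 0.00243). Ssr4, a subunit of the translocon-associated complex, was at 95.1, 113 and 110.1 CPM and 392, 191 and 168 CPM (log2 fold change 1.24 ± 0.31, adjusted p = 0.0184), and it did not pass without the cells of mouse 33, 42 or 46 (adjusted p = 0.0764, 0.0611 and 0.066). Members called higher had a median transcript length of 804 bases and those called lower 3649 bases.

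Genes of vesicle coats and Rab GTPases, which select and steer transport vesicles, moved in both directions. Of 39 coat genes, 14 were higher and 6 were lower (median 0.21), but under total-count scaling 6 were higher and 14 lower, so no direction is given to the set. The small subunits and the large ones differed. Ap2s1, the small sigma subunit of the clathrin adaptor at the plasma membrane, was at 229.9, 173 and 179.9 CPM in cells and 608, 470.2 and 425 CPM in exosomes (log2 fold change 1.37 ± 0.19, adjusted p = 0.00258, edgeR). Ap1s1, the sigma subunit of the adaptor at the Golgi, was at 105, 109 and 109.7 CPM and 184, 183 and 185 CPM (log2 fold change 0.77 ± 0.12, adjusted p = 0.00391). Ap3s1, the sigma subunit of the endosomal adaptor, was at 7.72, 5.37 and 2.79 CPM and 27, 26.8 and 26.8 CPM (log2 fold change 2.34 ± 0.35, adjusted p = 0.00303). All 3 were higher in every exosome library than in any cell library. Ap3b1, the large beta subunit of that same endosomal adaptor, was at 219, 210.3 and 224 CPM in cells and 76.6, 103 and 107 CPM in exosomes (log2 fold change -1.19 ± 0.17, adjusted p = 0.00248), the opposite direction. Cltc, the clathrin heavy chain, was at 548, 583 and 626 CPM and 246, 359.98 and 410.2 CPM (log2 fold change -0.79 ± 0.2, adjusted p = 0.0191) and lost its call when the cells of mouse 42 were left out (adjusted p = 0.0655), the cells of mouse 46 (adjusted p = 0.0786) or the exosomes of mouse 42 (adjusted p = 0.0653). Of 40 Rab genes, 14 were higher and 3 were lower (median 0.44), against 6 and 5 under total-count scaling. Rab1b, which acts between the endoplasmic reticulum and the Golgi, was at 149, 130.1 and 125 CPM in cells and 280.1, 287 and 315 CPM in exosomes (log2 fold change 1.12 ± 0.14, adjusted p = 0.00187). Rab31, a Rab of endosomes, was at 60.2, 61.7 and 52.4 CPM and 139, 131 and 108 CPM (log2 fold change 1.12 ± 0.16, adjusted p = 0.00259). Rab27a, which docks multivesicular bodies at the plasma membrane, was lower, at 42.5, 49.9 and 52.2 CPM in cells and 23.3, 16.2 and 10.9 CPM in exosomes (log2 fold change -1.53 ± 0.27, adjusted p = 0.00546).

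Lysosomal genes were called in both directions. Those named were picked by smallest p, so they give no direction to the proton pump or the hydrolases as groups. Of 49 lysosomal genes, 12 were higher and 11 were lower (median -0.12), where 18.7% and 19.6% of all genes were. Under total-count scaling 5 were higher and 25 lower. Atp6v0e, a small membrane subunit of the proton pump (GRCm38 chromosome 17, 26676396 to 26699647), was at 347, 336 and 337 CPM in cells and 897, 707 and 724 CPM in exosomes (log2 fold change 1.19 ± 0.15, adjusted p = 0.00189, edgeR). Atp6v0d1 was at 277, 241 and 248 CPM and 542, 502 and 528 CPM (log2 fold change 1.04 ± 0.14, adjusted p = 0.00207). Atp6v1e1 was at 240.2, 254 and 249 CPM and 461, 469.5 and 492 CPM (log2 fold change 0.94 ± 0.13, adjusted p = 0.00232). Each of these pump subunits was higher in every exosome library than in any cell library. Ctsc, the protease cathepsin C, was at 418, 513 and 548 CPM in cells and 198, 246 and 231 CPM in exosomes (log2 fold change -1.13 ± 0.16, adjusted p = 0.00279). Man2b1, an alpha-mannosidase, was at 552, 464 and 426 CPM and 195, 259.8 and 221 CPM (log2 fold change -1.09 ± 0.17, adjusted p = 0.00355). Both hydrolases were lower in all 3 exosome libraries than in any cell library.

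Genes whose proteins build or mark vesicles did not share a direction. Of 27 tetraspanins, annexins and scaffold genes, 7 were higher and 4 were lower (median 0.31), where 18.7% and 19.6% of all genes were. Anxa2, a calcium-dependent membrane-binding annexin (GRCm38 chromosome 9, 69453683 to 69491792), was at 631, 719 and 798 CPM in cells and 3623, 4202 and 5149.5 CPM in exosomes (log2 fold change 2.6 ± 0.19, adjusted p = 0.000363, edgeR). Anxa6 was at 237, 217 and 244 CPM and 586, 682 and 894 CPM (log2 fold change 1.63 ± 0.19, adjusted p = 0.00135). Anxa1 was at 1345, 1683 and 1509 CPM and 2703, 3532 and 4002 CPM (log2 fold change 1.17 ± 0.19, adjusted p = 0.0039). Among exosomes, all 3 annexins were lowest in mouse 33 and highest in mouse 46, the reverse of the order for ferritin. The tetraspanins named were lower. Members were picked by smallest p in each direction, so those named give no direction to annexins or tetraspanins as groups. Tspan13 was at 50.2, 32 and 41.8 CPM in cells and 8.43, 5.89 and 3.66 CPM in exosomes (log2 fold change -2.8 ± 0.32, adjusted p = 0.00135). Tspan33 was at 21.2, 12.9 and 17.4 CPM and 6.4, 4.35 and 3.25 CPM (log2 fold change -1.9 ± 0.31, adjusted p = 0.00424). Tspan3 was at 158, 148 and 165 CPM and 58.2, 87.6 and 98 CPM (log2 fold change -0.95 ± 0.2, adjusted p = 0.0101). Of 42 genes for sorting into and release of multivesicular bodies, 10 were higher and 4 were lower (median 0.20), against 5 and 12 under total-count scaling. Ykt6, a SNARE of membrane fusion, was at 92.1, 101 and 95.2 CPM in cells and 234, 189 and 182 CPM in exosomes (log2 fold change 1.07 ± 0.15, adjusted p = 0.00258). Snf8, a subunit of ESCRT-II, was at 53.1, 59.2 and 62.1 CPM and 131, 118 and 106 CPM (log2 fold change 1.03 ± 0.15, adjusted p = 0.00279), and Chmp6, a small ESCRT-III protein, was at 15, 13.1 and 12.4 CPM and 29.2, 30.3 and 27.8 CPM (log2 fold change 1.11 ± 0.17, adjusted p = 0.0032). Sdc4, a syndecan, was at 18.2, 18.1 and 20.6 CPM in cells and 3.93, 6.28 and 5.18 CPM in exosomes (log2 fold change -1.86 ± 0.23, adjusted p = 0.00185), the opposite direction.

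Genes of the cytoskeleton were called in both directions, in places within 1 protein complex. Of 56 actin genes, 18 were higher and 5 were lower (median 0.20), against 8 and 19 under total-count scaling. Tmsb10, which binds actin monomers, was at 322, 315 and 370.3 CPM in cells and 975, 777 and 754 CPM in exosomes (log2 fold change 1.32 ± 0.16, adjusted p = 0.00184, edgeR). Diaph1, a formin that elongates filaments, was at 243, 233 and 263 CPM and 815, 1568 and 2249.5 CPM (log2 fold change 2.65 ± 0.34, adjusted p = 0.00205). Myl12a, a myosin light chain, was at 72.4, 89.9 and 84.3 CPM and 191, 159 and 165 CPM (log2 fold change 1.06 ± 0.15, adjusted p = 0.00268). Diaph1 was lowest in the exosomes of mouse 33 and highest in those of mouse 46. Fscn1, the filament bundler of mature dendritic cells, was at 548, 289.8 and 373 CPM in cells and 44.1, 61.9 and 31.4 CPM in exosomes (log2 fold change -3.14 ± 0.33, adjusted p = 0.00093). Myh9, the heavy chain of non-muscle myosin, was at 785, 567 and 669 CPM and 94.1, 173 and 245 CPM (log2 fold change -1.98 ± 0.33, adjusted p = 0.00442). Enah, a filament elongator, was at 26.7, 25.5 and 31.8 CPM and 7.56, 7.92 and 11.9 CPM (log2 fold change -1.62 ± 0.23, adjusted p = 0.00267). A myosin light chain and a myosin heavy chain thus lay on opposite sides. Of 25 tubulins and microtubule motors, 7 were higher and 6 were lower (median 0.14), where 18.7% and 19.6% of all genes were. Under total-count scaling 5 were higher and 9 lower. Dync1h1, the heavy chain of dynein (GRCm38 chromosome 12, 110601395 to 110666944, 14398 bases), was at 198, 158 and 171 CPM in cells and 16, 30.4 and 51.8 CPM in exosomes (log2 fold change -2.42 ± 0.38, adjusted p = 0.00349). The dynein light chain Dynll1 was at 89.7, 109 and 112 CPM and 257, 198 and 185 CPM (log2 fold change 1.04 ± 0.18, adjusted p = 0.0047), and Dynll2 was at 109.6, 99.2 and 109 CPM and 213, 199 and 194 CPM (log2 fold change 0.93 ± 0.13, adjusted p = 0.00259). Heavy and light chains of dynein were therefore called in opposite directions as well. Tuba1b, an alpha tubulin, was at 49.8, 46.3 and 43.8 CPM in cells and 186, 108 and 102 CPM in exosomes (log2 fold change 1.5 ± 0.25, adjusted p = 0.00402). Map4, which stabilises microtubules, was at 204, 157 and 191 CPM and 53.1, 76.3 and 101 CPM, and Kif2a, which takes them apart, was at 45.9, 47.1 and 45.5 CPM and 13.4, 22.6 and 24.6 CPM, with log2 fold changes of -1.26 ± 0.24 and -1.19 ± 0.23.

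Chromatin regulators were called lower far more often than higher, while genes of Mediator and RNA polymerase II were called in both directions. Of 78 chromatin regulators, 42 were lower and 3 were higher (median -0.89), and with any 1 library left out 29 to 49 were lower. Kdm4a, a histone demethylase, was at 225, 177 and 202 CPM in cells and 51, 59.5 and 56.2 CPM in exosomes (log2 fold change -1.86 ± 0.15, adjusted p = 0.000515, edgeR). Ep300, a histone acetyltransferase, was at 73, 67.3 and 66.1 CPM and 20.8, 19.1 and 24.4 CPM (log2 fold change -1.69 ± 0.16, adjusted p = 0.000775). Setd2, which methylates histone H3 along transcribed genes, was at 60.3, 68.2 and 77.4 CPM and 23, 17.7 and 19.5 CPM (log2 fold change -1.78 ± 0.18, adjusted p = 0.000854). The exosomes of the 3 mice were close to each other for these. Dnmt3a, a DNA methyltransferase, was 1 of the 3 higher members, at 117, 95.4 and 94.9 CPM in cells and 545, 486 and 221 CPM in exosomes (log2 fold change 2.03 ± 0.32, adjusted p = 0.00363). Of 44 genes of Mediator and RNA polymerase II, 9 were higher and 7 were lower (median 0.19), where 18.7% and 19.6% of all genes were. Under total-count scaling 6 were higher and 12 lower. Med28 was at 71.4, 73.8 and 74 CPM in cells and 191, 139.6 and 120.3 CPM in exosomes (log2 fold change 1.04 ± 0.19, adjusted p = 0.00589), Med9 at 28.5, 24 and 22.2 CPM and 65.9, 58.5 and 41.1 CPM, and the small polymerase subunit Polr2f at 31.9, 30.4 and 33.8 CPM and 85.9, 54.7 and 56 CPM. The lower members named belong to the kinase module of Mediator. Med13, with 11787 bases, was at 52.8, 63.6 and 62.6 CPM in cells and 14.4, 24 and 23.9 CPM in exosomes (log2 fold change -1.51 ± 0.23, adjusted p = 0.00306). Med12 and Med13l had log2 fold changes of -1.61 ± 0.39 and -1.35 ± 0.33, but each lost its call when the cells of mouse 33 were left out (adjusted p = 0.0587 and 0.0591). Med12 lost it also without the cells of mouse 42 (adjusted p = 0.0524), and Med13l without the cells of mouse 46 (adjusted p = 0.0604) or the exosomes of mouse 42 (adjusted p = 0.0571).

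Small RNA processing genes and long non-coding RNAs gave further contrasts. Of 21 genes of small RNA processing, 10 were lower and 3 were higher (median -0.69), and 6 were lower without the cells of mouse 46. Tut4, which adds uridines to RNA ends, was at 29.3, 26.4 and 21.7 CPM in cells and 1.31, 4.01 and 5.69 CPM in exosomes (log2 fold change -2.77 ± 0.42, adjusted p = 0.00308, edgeR). Its relative Tut7 had a log2 fold change of -1.65 ± 0.22, and Ddx6, a helicase of processing bodies, was at 343, 379 and 422 CPM and 159.97, 174 and 183 CPM (log2 fold change -1.15 ± 0.14, adjusted p = 0.00188). Ago2, the effector that holds microRNAs, was higher instead, at 20.5, 20.8 and 18.6 CPM in cells and 84.8, 74.7 and 29.8 CPM in exosomes (log2 fold change 1.66 ± 0.36, adjusted p = 0.00999), with the exosomes of mouse 46 nearest to the cells. Its call was lost without both libraries of mouse 33 (adjusted p = 0.102). Neat1, the scaffold RNA of nuclear paraspeckles, was at 122, 163 and 123 CPM in cells and 55.4, 38.7 and 33.3 CPM in exosomes (log2 fold change -1.68 ± 0.23, adjusted p = 0.00235). Of 18 cytoplasmic long non-coding RNAs and host genes of small nucleolar RNAs, 6 were higher and 1 was lower (median 0.53), and with the mouse as a block 3 were higher. Snhg8 was at 10.3, 8.78 and 9.75 CPM in cells and 118, 49.3 and 23.1 CPM in exosomes (log2 fold change 2.71 ± 0.53, adjusted p = 0.00718). Oip5os1 was at 46.4, 58.2 and 55.9 CPM and 104, 96.1 and 97.6 CPM (log2 fold change 0.89 ± 0.15, adjusted p = 0.00457). Snhg6 was at 22.4, 35.9 and 24.4 CPM and 198, 91 and 56.9 CPM (log2 fold change 2.06 ± 0.44, adjusted p = 0.00997), and it did not pass without the cells of mouse 33 (adjusted p = 0.0508). The host genes were highest in the exosomes of mouse 33. By annotated class, 88 of 199 pseudogenes tested were higher and 4 lower (median 0.86), and many share reads with the gene they were copied from, so these are uncertain. Of 9 immunoglobulin and T-cell receptor V segments tested, 6 were lower.

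Translation factors divided much as the cytoskeleton did. Of 47 initiation and elongation factors, 11 were higher and 8 were lower (median 0.03), against 3 and 17 under total-count scaling. Over all genes tested, 18.7% were higher and 19.6% lower, which also applies to the proteasome below. Eif4ebp1, the repressor of the cap-binding protein, was at 34.7, 32.4 and 35.5 CPM in cells and 115, 79.5 and 91.8 CPM in exosomes (log2 fold change 1.48 ± 0.18, adjusted p = 0.0016, edgeR). Eif5a, a small elongation factor, was at 431, 445 and 452 CPM and 1019.99, 860.5 and 857 CPM (log2 fold change 1.04 ± 0.14, adjusted p = 0.00235). Eif3k, a small subunit of the factor eIF3, was at 163, 162 and 161 CPM and 669, 359.9 and 289.96 CPM (log2 fold change 1.44 ± 0.3, adjusted p = 0.0086). The large scaffold proteins went the other way. Eif4g3 was at 85.5, 78.8 and 86.8 CPM in cells and 11.5, 17.3 and 20.8 CPM in exosomes (log2 fold change -2.33 ± 0.23, adjusted p = 0.000783). Eif4g1 was at 231, 184 and 219 CPM and 30.7, 55.5 and 64.1 CPM (log2 fold change -2.07 ± 0.27, adjusted p = 0.00207). Eif5b, which joins the ribosomal subunits, was at 132, 142 and 159 CPM and 22.4, 30.7 and 40.7 CPM (log2 fold change -2.2 ± 0.23, adjusted p = 0.000946). Median lengths were 1565 bases for the higher and 4175 bases for the lower members. Among 41 proteasome subunits, 8 were higher and 2 lower, against 2 and 7 under total-count scaling, and 5 were higher with the mouse as a block. Psmb6, a catalytic subunit, was at 122, 142 and 129 CPM in cells and 282, 233 and 217 CPM in exosomes (log2 fold change 0.89 ± 0.15, adjusted p = 0.00486). Psme1, a subunit of the interferon-induced activator, was at 151, 176 and 185 CPM and 114, 112 and 115 CPM (log2 fold change -0.58 ± 0.14, adjusted p = 0.0143) and lost its call without the cells of mouse 42 (adjusted p = 0.0672) or of mouse 46 (adjusted p = 0.0775), or the exosomes of mouse 42 (adjusted p = 0.0604).

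Ribosomal protein messages typically begin with a C followed by a run of pyrimidines, the 5′ terminal oligopyrimidine tract by which their translation is controlled. The starts of 7 genes are shown because all 7 carry such a tract and their calls differ: the 5 ribosomal proteins were picked among the 12 of 27 with a tract that were higher, and of the translation factors shown Eef1a1 was not called and Eif4g1 was lower. Each line gives 10 bases before to 20 bases after the annotated start in the RefSeq promoter table (GRCm38.p6), 5′ to 3′ on the strand of the gene, with the tract in capitals.
Rps2, chr17:24720053-24720082, plus strand: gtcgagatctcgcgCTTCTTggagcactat
Rps21, chr2:180257369-180257398, plus strand: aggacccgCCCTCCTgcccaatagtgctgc
Rpl13a, chr7:45128726-45128755, minus strand: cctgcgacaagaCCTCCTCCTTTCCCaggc
Rps18, chr17:33955646-33955675, minus strand: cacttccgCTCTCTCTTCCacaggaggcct
Rpl27a, chr7:109519185-109519214, plus strand: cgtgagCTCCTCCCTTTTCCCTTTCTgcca
Eef1a1, chr9:78481705-78481734, minus strand: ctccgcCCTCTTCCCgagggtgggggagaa
Eif4g1, chr16:20672717-20672746, plus strand: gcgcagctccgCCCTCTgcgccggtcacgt
The motif searched was a C followed by at least 5 C or T within 4 bases either side of the annotated start, on the strand of the gene only. It was found in 1905 of 18458 genes (10.3%) and in 27 of 60 ribosomal protein genes with an entry (45%). A match describes the letters only.

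Ribosomal proteins were higher in exosomes with and without a matched tract. Of 33 small-subunit proteins 18 were higher and none was lower (median 1.13), and of 48 large-subunit proteins 26 were higher and none was lower (median 1.06), by edgeR's test. With the mouse as a block, 9 and 16 were higher. Rps2 was at 230.2, 124 and 105 CPM in cells and 1907, 1121 and 863 CPM in exosomes (log2 fold change 3.08 ± 0.4, adjusted p = 0.00207). Rps29 was at 14.8, 12.4 and 13.5 CPM and 181, 55.8 and 47.5 CPM (log2 fold change 2.8 ± 0.51, adjusted p = 0.00566), and Rps16 at 73.5, 84.8 and 77.7 CPM and 550.3, 219 and 174 CPM (log2 fold change 2.0 ± 0.41, adjusted p = 0.00845). Rpl36 was at 15.7, 10 and 9.8 CPM and 83.8, 39.7 and 42.7 CPM (log2 fold change 2.22 ± 0.35, adjusted p = 0.00341). The exosomes of mouse 33 were highest in each case and gave the 2 sets medians of 2.33 and 2.20 relative to all genes, against 0.67 and 0.65 in mouse 42 and 0.27 and 0.23 in mouse 46. Without the exosomes of mouse 33 the medians were 0.62 and 0.60. The 27 genes with a tract had a median of 1.10 and the 33 without one a median of 1.13. Outside the ribosomal proteins, 1108 genes with a tract had a median of -0.05 and 8703 without one -0.04. Of the genes shown, Rps21, Rpl13a, Rps18 and Rpl27a had log2 fold changes of 2.05, 1.76, 1.4 and 1.17. Without the cells of mouse 33, Rps21 (adjusted p = 0.0625), Rps18 (adjusted p = 0.0513) and Rpl27a (adjusted p = 0.149) did not pass, and Rpl27a did not with the block (adjusted p = 0.112). Rps21 also did not pass without the cells of mouse 42 (adjusted p = 0.0504) or 46 (adjusted p = 0.056), nor Rpl27a without the cells of mouse 42 (adjusted p = 0.121) or 46 (adjusted p = 0.0887), or the exosomes of mouse 42 (adjusted p = 0.0669). Eef1a1, the elongation factor, had a log2 fold change of 0.21 ± 0.24 (adjusted p = 0.513) and was not called, and Eif4g1 was lower as given above. Of the 6 translation factors with a tract, 1 was higher, Eif3f (log2 fold change 0.79 ± 0.22, adjusted p = 0.0237), 1 was lower and 4 were not called. The call of Eif3f was lost under total-count scaling (adjusted p = 0.145) and with 1 library left out, namely the cells of mouse 42 (adjusted p = 0.0992), the cells of mouse 46 (adjusted p = 0.093) or the exosomes of mouse 42 (adjusted p = 0.0575). Ribosomal proteins have many processed copies in the genome, and reads shared with them make single values uncertain.

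Replication-dependent histone messages end in a conserved stem-loop in place of a poly(A) tail, and the loops of the 4 tested histones that carry it are shown because they mark messages of that kind. No source used here says whether the TruSeq kit selected RNA with a poly(A) tail, so the values below may cover only part of the histone messages. Each line is the stem-loop with 5 bases on either side from the last 120 bases of a GENCODE M21 transcript, 5′ to 3′, with the stem and loop in capitals; the coordinates are those of the gene in GRCm38.
H2ac18, chr3:96245497-96246052: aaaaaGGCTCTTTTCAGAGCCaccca
H2ac19, chr3:96239779-96240374: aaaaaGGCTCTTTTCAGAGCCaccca
H2bc7, chr13:23573760-23574207: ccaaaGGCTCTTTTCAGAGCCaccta
H3c3, chr13:23745042-23745521: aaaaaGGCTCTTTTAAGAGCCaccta
The motif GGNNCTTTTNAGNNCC was searched on the transcript strand and found in 23 of 24852 genes (0.0925%), in 22 of 59 replication-dependent histones and in 4 of the 18 histones tested. Outside the histones, 1 tested gene held it, Rab12, a Rab GTPase (log2 fold change 0.51 ± 0.15, adjusted p = 0.0275), which is named for the motif after its values were seen. Its call was lost under total-count scaling (adjusted p = 0.518), with the block (adjusted p = 0.0652) and without any 1 of the cell libraries or the exosomes of mouse 42 (adjusted p = 0.0597 to 0.127). Of those 18, 8 were higher in exosomes and none was lower (median 1.10), 4 were higher with the mouse as a block and 1 to 8 with any 1 library left out. The summed level of all 59 replication-dependent histones changed less, from 268, 211 and 211 CPM in cells to 286, 329 and 336 CPM in exosomes. H2ac18 was at 4.89, 2 and 1.6 CPM in cells and 14.8, 12.8 and 17.7 CPM in exosomes (log2 fold change 2.4 ± 0.44, adjusted p = 0.00582, edgeR). H2ac19 was at 4.48, 1.18 and 1.16 CPM and 12.2, 11.2 and 9.55 CPM (log2 fold change 2.25 ± 0.55, adjusted p = 0.0153) and did not pass without the cells of mouse 42 (adjusted p = 0.0571) or of mouse 46 (adjusted p = 0.0575). The letters shown for both are identical, so reads between them may be shared. H2bc4 was at 47.4, 43.1 and 39.6 CPM in cells and 66, 73.2 and 70.3 CPM in exosomes (log2 fold change 0.69 ± 0.15, adjusted p = 0.0101) and did not pass under total-count scaling (adjusted p = 0.156) or without the cells of mouse 42 (adjusted p = 0.0545) or 46 (adjusted p = 0.0645), or the exosomes of mouse 42 (adjusted p = 0.052). H2bc7 had a log2 fold change of 1.31 ± 0.44 (adjusted p = 0.0477), a call lost with any 1 library left out (adjusted p = 0.0521 to 0.182) and with the block (adjusted p = 0.102), and H3c3 one of 1.15 ± 0.94 (adjusted p = 0.363), the latter not called. Counts of these histones were low, and cells of mouse 33 lay above the other cells for H2ac18 and H2ac19.

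Nuclear genes for mitochondrial import and the respiratory chain were higher in exosomes, whereas RNA made inside mitochondria was not called. Of 33 genes for protein import into mitochondria, 21 were higher and none was lower (median 1.01), against 15 and 3 under total-count scaling, and 13 to 22 were higher with any 1 library left out. Grpel1, which recharges the import motor, was at 48.3, 57.4 and 52.3 CPM in cells and 175, 148 and 137 CPM in exosomes (log2 fold change 1.54 ± 0.16, adjusted p = 0.000854, edgeR). Tomm6, a small subunit of the outer membrane pore (GRCm38 chromosome 17, 47686645 to 47688386), was at 70.2, 65.7 and 70.3 CPM and 263, 173 and 166 CPM (log2 fold change 1.55 ± 0.2, adjusted p = 0.00207). Timm13, which escorts proteins across the space between the membranes, was at 64.7, 64.6 and 54.4 CPM and 193, 149.6 and 133 CPM (log2 fold change 1.37 ± 0.18, adjusted p = 0.00209). Exosomes were above cells in every mouse. Of 71 nuclear genes of the respiratory chain, 51 were higher and none was lower (median 0.98). With the mouse as a block 40 were higher, and under total-count scaling 32 were higher and 1 lower. Relative to all genes the median was 0.99, and 0.67 without both libraries of mouse 33. Ndufb2, a small subunit of complex I, was at 22.2, 23.5 and 16.7 CPM in cells and 109, 64.9 and 57.8 CPM in exosomes (log2 fold change 1.89 ± 0.28, adjusted p = 0.00279). Of 25 enzymes of the citric acid cycle, which also work inside mitochondria, 7 were higher and 3 were lower (median 0.16), against 3 and 8 under total-count scaling. None of the 13 protein-coding genes of the mitochondrial genome was called. ND5 was at 3051, 3458 and 3234 CPM in cells and 95.4, 366 and 2051 CPM in exosomes (log2 fold change -1.96 ± 0.9, adjusted p = 0.122), and COX1 at 23016, 24588 and 24835 CPM and 18609, 31998 and 76996 CPM (log2 fold change 0.82 ± 0.45, adjusted p = 0.186). Both were lowest in the exosomes of mouse 33 and highest in those of mouse 46, the opposite order to the nuclear genes named above.

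Iron, antioxidant and lipid genes contained some of the strongest single changes. Of 30 iron-storage, metallothionein and antioxidant genes, 22 were higher and 2 were lower (median 0.89), and 14 to 21 were higher with any 1 library left out. Beside the ferritins, Prdx1, a peroxide-reducing enzyme, was at 1009.8, 1284 and 1412 CPM in cells and 3215, 2818 and 3074 CPM in exosomes (log2 fold change 1.3 ± 0.17, adjusted p = 0.0021, edgeR). Txn2, the mitochondrial thioredoxin, was at 119, 119.9 and 122 CPM and 387, 281 and 249.8 CPM (log2 fold change 1.35 ± 0.19, adjusted p = 0.00242). The 2 lower members are membrane proteins. Tfrc, the transferrin receptor that brings iron into cells, was at 116, 165 and 172 CPM in cells and 51.2, 26.4 and 28.1 CPM in exosomes (log2 fold change -2.11 ± 0.3, adjusted p = 0.0025). Slc7a11, the cystine importer, was at 192, 201 and 201 CPM and 57.7, 73.1 and 78.6 CPM (log2 fold change -1.5 ± 0.16, adjusted p = 0.000947). The ferritin messages and that of Tfrc thus lay on opposite sides. Of 15 lipid carriers and droplet proteins, 7 were higher and 2 were lower (median 0.51), against 4 and 5 under total-count scaling. Fabp4, a fatty acid-binding protein, was at 59, 58.6 and 54.5 CPM in cells and 262, 209.8 and 186 CPM in exosomes (log2 fold change 1.93 ± 0.17, adjusted p = 0.000593). Lpl, the secreted lipoprotein lipase, was at 3359.9, 2690.2 and 3327 CPM and 708, 1145 and 1363 CPM (log2 fold change -1.54 ± 0.25, adjusted p = 0.00398). Of 36 genes of cholesterol and fatty acid synthesis and lipid efflux, 15 were lower and 4 were higher (median -0.57), and 8 were lower without the cells of mouse 42. Abca1, which exports cholesterol, was at 82.1, 97.2 and 112 CPM in cells and 4.07, 15.2 and 14 CPM in exosomes (log2 fold change -3.1 ± 0.43, adjusted p = 0.00245). Cyp51, a sterol demethylase, was at 143, 200.5 and 192 CPM and 41.9, 54.2 and 54.4 CPM (log2 fold change -1.83 ± 0.19, adjusted p = 0.000927). Mvd, an enzyme earlier in the same pathway, was higher, at 85.9, 82.8 and 71.4 CPM in cells and 172, 181 and 139.8 CPM in exosomes (log2 fold change 1.04 ± 0.16, adjusted p = 0.00332).

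Set side by side, the lists ordered themselves alike in the 3 mice at the lower end and less so at the higher end. Relative to the median of all genes, the maturation genes were at -1.92, -2.25 and -2.59 in mice 33, 42 and 46, the integrins at -1.56, -1.24 and -1.04, and the folding genes at -0.28, -0.51 and -0.47. The import genes were at 1.49, 0.89 and 0.79, the antioxidant genes at 1.21, 0.85 and 0.83, and the core proteins of small nuclear ribonucleoproteins at 1.38, 0.22 and 0.10. Without both libraries of mouse 33 the median of these core proteins was 0.13, against 0.63 in the main fit. Mouse 33 therefore stood highest in most lists that were higher in exosomes. Of 59 lists with at least 5 tested genes, 27 had a median at least 0.5 from that of all genes. Among these, none changed sign under any of the 18 alternatives.

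**Figure D4:**
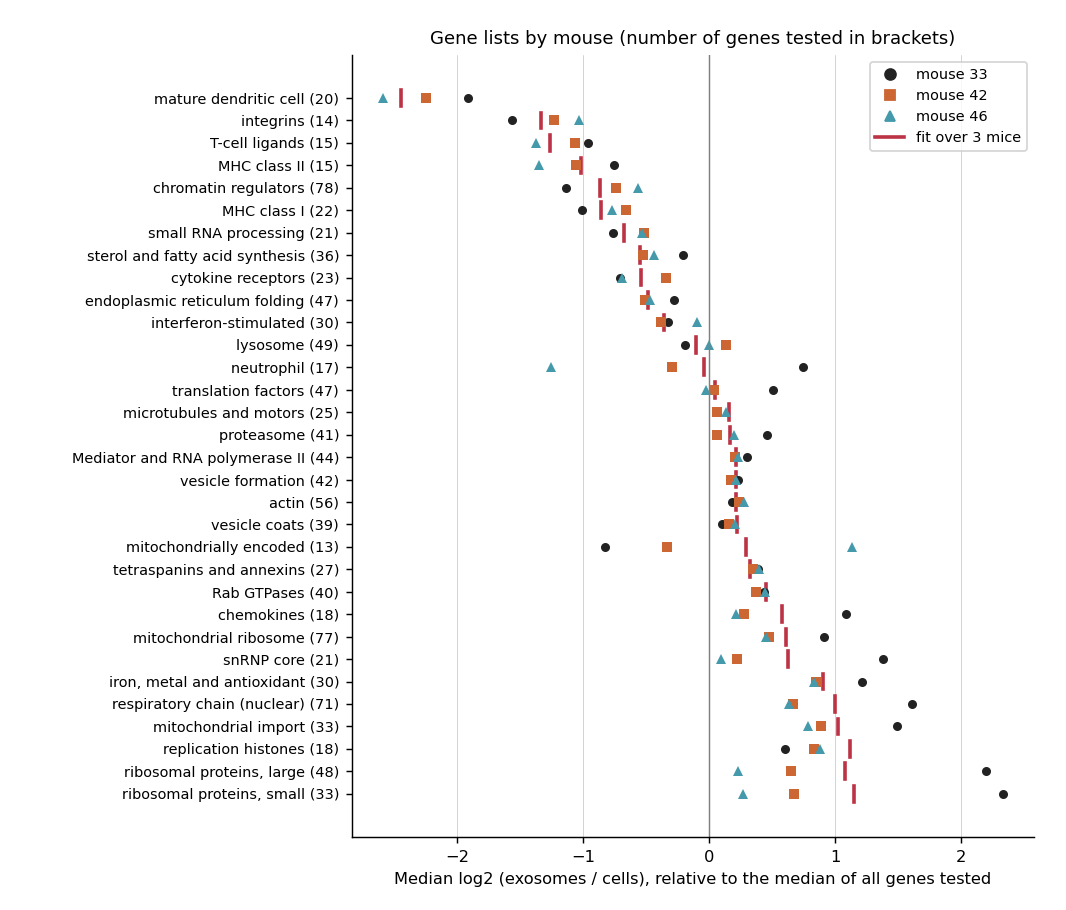
Median log2 ratio of exosomes to cells relative to the median of all genes tested (horizontal axis) for each gene list (rows, number of genes tested in brackets), with 1 symbol per mouse and a red tick for the fit over 3 mice. Maturation genes lie at -1.92 to -2.59 in all 3 mice, and ribosomal proteins of the small subunit spread from 0.27 to 2.33.

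Transcript length ran through many of these contrasts. With genes put into 5 classes of equal number by deposited length, the median log2 fold change went from 0.57 in the shortest (60 to 1451 bases) through 0.14, -0.09 and -0.30 to -0.50 in the longest (from 4553 bases). The share of genes higher in exosomes went from 36.8% to 9.82% and the share lower from 4.36% to 36.5%. With 5 classes by GC content, known for 12469 genes, the medians were -0.42, -0.14, 0.01, 0.20 and 0.28. Both gradients were seen in each mouse, except that GC content in mouse 33 gave 0.19 in the fourth class and 0.07 in the highest. Genes whose protein has a hydrophobic window of 19 residues with a mean hydropathy of at least 1.6, as membrane-spanning segments do, had a median of -0.23 (3942 genes), against 0.04 for the other 7795. Within the classes of length the medians without and with such a window were 0.52 and 0.40 in the shortest, 0.12 and 0.00 in the next, -0.06 and -0.24 in the middle, -0.25 and -0.42 in the fourth and -0.38 and -0.71 in the longest. Genes with the window were lower in every class. Across genes these are descriptions, since genes are not replicates.

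**Figure D5:**
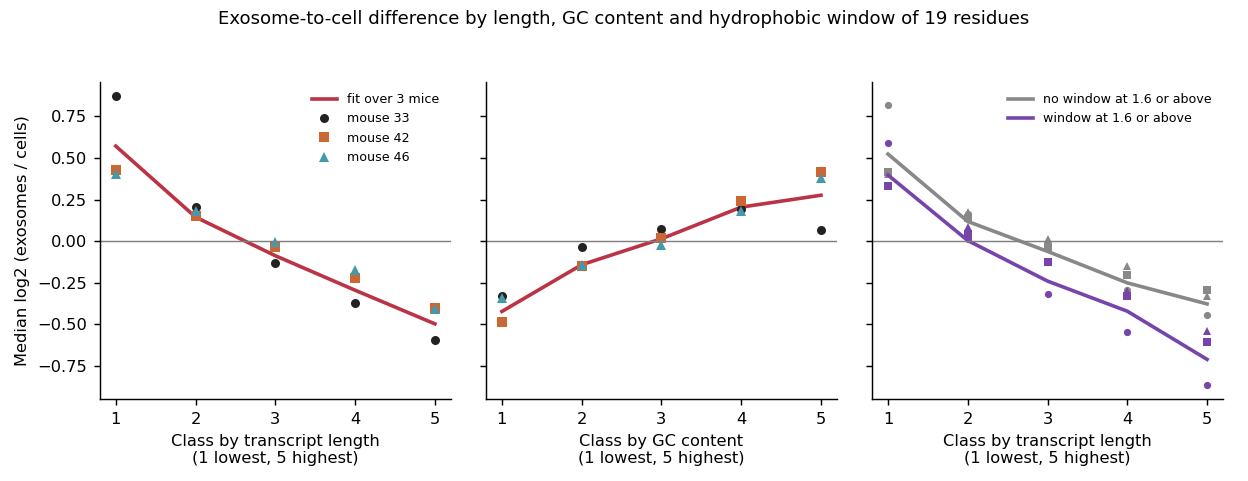
Median log2 ratio of exosomes to cells (vertical axis) by class of transcript length (5 classes, left), GC content (middle) and transcript length with and without a hydrophobic window (right), with a line for the fit over 3 mice and 1 symbol per mouse. The left line falls from 0.57 to -0.50 and the middle line rises from -0.42 to 0.28.

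Length also separated members within lists. In 28 lists at least 3 members were called each way, and in 26 of them the lower members were longer. The Mediator and polymerase genes had medians of 2040 bases for higher and 5799 for lower members, the microtubule genes 2021 and 5269, and the coat genes 1528 and 4572. The exceptions were chromatin regulators, where the 3 higher members had a median of 9852 bases against 7263, and zinc finger genes at 4018 against 3277. After subtracting the median of those genes that resembled a member in length and GC content (chosen once the data were known), the maturation genes were at -2.38, the integrins at -1.02, the chromatin regulators at -0.62, the folding genes at -0.41 and the small RNA genes at -0.29. On the higher side, the antioxidant genes were at 0.60, the import genes at 0.43, the Rab genes at 0.41, and the ribosomal proteins at 0.41 and 0.34 for the small and large subunits. Chemokines were at 0.09. All of these were nearer to 0 than before the subtraction.

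The same comparison in the mice labelled double knock-out gave like directions. Of 4825 genes called here and tested there, 3987 (82.6%) were called in the same direction and none in the opposite one. Of all 12261 genes tested in both, 5825 were called there in either direction. The test of the difference between the 2 exosome-to-cell comparisons called 0 of 12970 genes (0.0%) with edgeR, 776 had an unadjusted p below 0.05, and the smallest adjusted p was 0.715. Log2 fold changes in those mice were 2.21 for Fth1, -2.87 for Itga4, -1.97 for Hsp90b1, 2.71 for Anxa2, -2.23 for Gbp2, -2.26 for Dync1h1 and -1.83 for Kdm4a, all in the direction given above for the wild type. For Ccl6 it was 1.07 and for Atp6v0e 0.76. The ribosomal protein lists had medians of 0.13 each there. The RNA levels of Sidt2 went with the labels of those mice and those of Sidt1 did not. A count per gene does not show whether its RNA is intact. Sidt2 stood at 169 to 323 CPM in the wild-type libraries and at no more than 2.39 CPM in those labelled double knock-out. Sidt1, which was also labelled as knocked out, had 0 to 4 counts in the wild-type libraries and 309 to 1722 counts in the others, so the genotype label of those libraries is not taken as checked.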

How the data were processed

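RNA of bone-marrow-derived dendritic cells and of their exosomes was sequenced from 3 wild-type mice. The deposited values are raw counts per gene, made by the authors with featureCounts on the build mm10, per the submitters' processing notes. No source used here gives the aligner, the versions, the annotation or the strandedness. Overlapping and antisense genes therefore cannot be separated. All 12 library tables hold the same values as the series table. Of 27179 gene identifiers, 25275 were paired with a symbol from the RefSeq table (GRCm38.p6).

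The 6 wild-type libraries were fitted with edgeR 4.0.16 in R 4.3.3: filterByExpr, TMM scaling, a robust quasi-likelihood F test without a block, with p-values adjusted (Benjamini-Hochberg) across the 12829 genes that passed the filter. Errors beside log2 fold changes are standard errors derived from the test, as the absolute log2 fold change divided by the square root of F. The mouse number pairs cells with exosomes of 1 animal, and the deviations of same-mouse libraries from their group means correlated at -0.0039, 0.0378 and 0.0477. These correlations run across genes, and single genes can still follow the mouse. Xist, for example, had an adjusted p of 0.0705 without the block and 0.00591 with it (edgeR). The blocked fit is given as an alternative, beside DESeq2 1.42.0, voom in limma 3.58.1, other scalings, other filters and each library or mouse left out. Depth is in the report, and a count of 0 allows 3 counts. The code was tested on simulated data.

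The members and the gene lists were chosen with earlier results of these data known. Genes were named from the 15 largest changes in each direction, up to 3 members of each list in each direction by p, the 5 most abundant per group, and label checks; genes whose sequence is shown were added. This rule gives 456 genes, of which a part, picked with the values known, is described here. No p is given for a list.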

Additional observations from a re-analysis of the deposited data

How the results depend on the processing

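The number of genes called depended on the tool, the scaling and the libraries. Voom with quality weights called 8316 genes, 4086 higher and 4230 lower. Total-count scaling gave 1116 higher and 4132 lower, so that 21.3% of calls were higher against 48.9% with TMM. With 1 library or 1 mouse left out, 99 to 5708 genes were called, 3 to 2701 higher and 96 to 3007 lower; the lowest values are without both libraries of mouse 42. The mouse as a replicate block gave 3837 calls, 1794 higher and 2043 lower, and among the genes named it ended only the calls of Lyz2, Rpl27a, H2bc7 and Rab12. With no filter on low counts 4479 were called, and Rap1gap2, Tdg, Tmem248, Zbed4, Malat1, Lyz2, Rps21, Rpl27a, H2bc7 and Rab12 no longer passed. DESeq2 called 5756. Of 59 gene lists, the 27 with a median at least 0.5 from that of all genes kept its sign under all 18 alternatives, and 8 nearer lists did not: lysosome, neutrophil, translation factor, RNA-sorting protein, glycolysis, histone variant, mitochondrially encoded, and mast cell and basophil genes. Total-count scaling turned the balance of higher and lower calls in 13 lists, among them actin, coat, autophagy and proteasome genes. The gradients with length and GC content and the 0 calls of the test between genotypes were kept under the alternatives run for each. Depth limits genes near the count of 0, such as Flt3 and Kit in exosomes.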

Other observations

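Neutrophil genes differed between the exosome libraries of the 3 mice. S100a8, a calcium-binding protein of neutrophils, was at 341, 795 and 541 CPM in the cells of mice 33, 42 and 46 and at 1608, 789 and 218 CPM in their exosomes. S100a9, its partner, was at 418, 804 and 527 CPM and 1674, 980.2 and 293 CPM. Neither passed edgeR's test, and the exosomes of mouse 33 lay above and those of mouse 46 below every cell library. Of 17 neutrophil genes, 2 were lower, Cxcr2 and Csf3r, and the median relative to all genes was 0.75, -0.30 and -1.26 in the 3 mice. Xist stood at 134 CPM (mouse 33) and 206 CPM (mouse 42) in female cells, against 5.39 and 1.69 CPM in the matching exosomes, and Ddx3y of the Y chromosome was at 63.6 CPM in the cells of the male mouse 46 and at 45.4 CPM in its exosomes.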
